A study of Mus musculus with 6 samples.

Results

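The genes described here encode the proteins that control entry into the cell cycle in G1, the phase before DNA replication: the D-type cyclins Ccnd1, Ccnd2 and Ccnd3, the E-type cyclin Ccne1, the kinases Cdk4 and Cdk6, and the inhibitors Cdkn1a, Cdkn1b, Cdkn1c and Cdkn2c. They were chosen by symbol, and all 10 were found among the 46095 genes of the deposited table. The table holds FPKM, fragment counts divided by transcript length and library depth, for 6 samples of 3T3-L1, a line of mouse embryo fibroblasts that hormones can turn into fat-storing cells. In the treated group, the cells of 3 samples were given Smilax glabra flavonoids, an extract of a medicinal climber, at 0.125 μg/mL; the other 3 samples were left untreated. All were labelled adipocytes and taken 8 days after differentiation, and no genotype or other agent is named. The labels do not tell if replicates were grown as separate cultures, so the spread behind each p-value may be technical.

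As background, D-type cyclins are made in response to growth signals and bind Cdk4 or Cdk6. The active pair phosphorylates the retinoblastoma protein, which frees E2F transcription factors to switch on cyclin E and the genes of DNA replication. INK4 inhibitors such as Cdkn2c hold Cdk4 and Cdk6 apart from cyclin D, whereas CIP/KIP inhibitors such as Cdkn1a and Cdkn1b bind whole cyclin and kinase complexes, above all those of Cdk2. 3T3-L1 cells stop dividing when they are confluent, pass through a short burst of divisions after the hormonal stimulus, and then leave the cycle as they turn into fat cells.

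Treated cells had less Ccnd1 transcript, and Ccnd1 was the member that passed the test. It was 1.62-fold lower with flavonoids. Of 10 members, 9 reached a mean of 1 FPKM and were tested. Of these, 1 was called lower and 0 higher (limma fit of log2(FPKM + 1) across all 11464 tested genes, Benjamini-Hochberg adjustment, threshold 0.05), beside 5.13% of all tested genes called lower, 4.86% called higher and 9.99% called in either direction. At an unadjusted p under 0.05 there were 3 lower members and 1 higher, beside 1640 lower and 1465 higher among all 11464 tested genes. On fragment counts worked back from the table, limma's voom called 1 lower and 0 higher, beside 604 and 552 among all tested genes. The median log2 change of the 9 tested members was -0.24, beside -0.022 for all tested genes. In 6 of the 9 the treated and untreated values did not overlap, 5 of them lower with flavonoids and 1, Cdk4, higher; the same held for 34.3% of all tested genes.

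**Figure D1:**
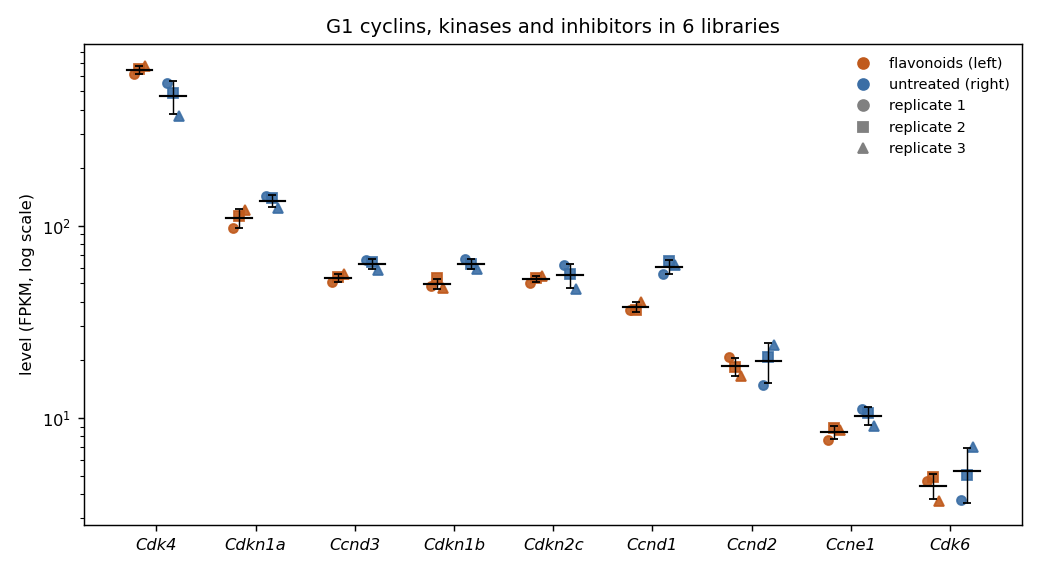
Level of each detected member in every library, in FPKM on a log axis, with flavonoids (orange) left of untreated (blue); symbols mark replicates, lines the means and bars the SD (n = 3 per group). Ccnd1 lay between 36.4 and 40.2 FPKM in treated libraries, all below the untreated ones, and Cdk4 between 615 and 677 FPKM, all above them.

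Whole fragments stand behind these values. As worked back from the FPKM values, the libraries held at least 24871930, 26355863 and 24621562 fragments in flavonoids replicates 1, 2 and 3. In untreated replicates 1, 2 and 3 they held at least 21952064, 23237722 and 25083868. Detected members had between 375 fragments, for Ccne1, and 23197 fragments, for Cdk4, in a library, so counting error was at most 5.16% of a value. As log2 deviations from their 6-library mean, genes under 2000 bases and genes of 5000 bases or more had medians between -0.17 and 0.051 in the treated libraries. These medians were 0.20 and -0.20 in untreated replicate 1, and -0.26 and 0.33 in untreated replicate 3, which stood apart. Of 14 listed mature adipocyte markers, 8 had a mean under 1 FPKM, among them Adipoq, Plin1, Cd36 and Slc2a4, while Pparg and Fabp4 were detected. How far the cells had matured, and so how many had left the cell cycle, was not measured.

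Promoter sequence is shown for Cdk4, whose treated values all lay above the untreated ones. It is also shown for 3 of the 5 members whose treated values all lay below the untreated ones. The others of the 5 are Ccnd1 and Ccnd3. None of the genes printed passed the test, so the sequences show the make-up of the windows only. RefSeq on GRCm38.p6 gave 10 windows for 7 members, each reaching from 250 bases before a transcript start to 50 bases after it. Cdk6, Ccnd3 and Cdkn2c also had windows, and Cdkn1a had an upstream one at chr17:29090729-29091028 (plus strand). These were searched and are not printed. The upstream Cdkn1a window held no match to any searched motif. Ccnd1, Ccnd2 and Cdkn1c had no entry. Sequences run 5′ to 3′ on the gene's strand, and capitals mark letters that match a searched motif on either strand, namely the E-box, GC box, CCAAT box, TATA box, AP-1 site or E2F site spelled out after the sequences. The Cdk4 window lies at chr10:127063285-127063584 (plus strand), the Ccne1 window at chr7:38107441-38107740 (minus strand), the Cdkn1b window at chr6:134920151-134920450 (plus strand) and the downstream Cdkn1a window at chr17:29093519-29093818 (plus strand).
Cdk4: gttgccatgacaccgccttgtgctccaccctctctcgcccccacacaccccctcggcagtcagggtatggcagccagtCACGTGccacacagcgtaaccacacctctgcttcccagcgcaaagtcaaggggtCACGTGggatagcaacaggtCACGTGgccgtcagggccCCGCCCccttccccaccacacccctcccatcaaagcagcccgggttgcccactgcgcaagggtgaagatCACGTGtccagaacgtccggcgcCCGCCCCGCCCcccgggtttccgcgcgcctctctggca
Ccne1: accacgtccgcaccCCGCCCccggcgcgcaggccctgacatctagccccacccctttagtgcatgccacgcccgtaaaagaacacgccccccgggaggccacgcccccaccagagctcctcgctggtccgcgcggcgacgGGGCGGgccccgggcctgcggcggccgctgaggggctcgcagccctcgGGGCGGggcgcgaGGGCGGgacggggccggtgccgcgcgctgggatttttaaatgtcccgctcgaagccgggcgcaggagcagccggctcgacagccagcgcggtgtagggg
Cdkn1b: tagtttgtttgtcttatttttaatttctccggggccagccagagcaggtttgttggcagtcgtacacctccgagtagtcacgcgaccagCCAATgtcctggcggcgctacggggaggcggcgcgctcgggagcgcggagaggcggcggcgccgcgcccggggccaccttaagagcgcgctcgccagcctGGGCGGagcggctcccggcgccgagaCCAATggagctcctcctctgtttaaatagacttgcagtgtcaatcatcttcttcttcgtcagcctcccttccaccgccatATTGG
Cdkn1a: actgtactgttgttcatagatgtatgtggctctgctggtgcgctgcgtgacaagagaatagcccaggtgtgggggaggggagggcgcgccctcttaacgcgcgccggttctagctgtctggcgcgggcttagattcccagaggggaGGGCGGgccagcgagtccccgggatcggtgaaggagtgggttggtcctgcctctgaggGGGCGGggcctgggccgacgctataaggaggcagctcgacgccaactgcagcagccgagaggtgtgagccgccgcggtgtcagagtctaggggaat

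The Cdk4 window held 4 copies of the E-box CACGTG, the palindrome read by MYC and related basic helix-loop-helix factors. At least 1 copy was found in 7.15% of the 32851 windows of all genes, and at least 4 copies in 8 windows, or 0.0244%. Among the 10 member windows 3 held it, with 1 copy each in the Cdk6 window and 1 Cdkn2c window beside those of Cdk4. The Ccne1, Cdkn1b and Cdkn1a windows printed above held no E-box by these letters. The GC box GGGCGG, bound by SP1-type factors, occurred in 7 of the 10 member windows, beside 35.7% of all windows. All 4 printed windows held it, with 4 copies in Ccne1, 3 in Cdk4, of which a pair overlaps, 2 in Cdkn1a and 1 in Cdkn1b. The CCAAT box, spelled as its name, occurred in 3 of the 10 member windows, beside 37.4% of all windows, with 3 copies in the Cdkn1b window. The E2F site was searched as TTGGCGC and, as a second form of it, as TTCCCGC. Among the 10 member windows it occurred in 1, an upstream window of Cdkn2c, beside 6.81% of all windows. The AP-1 letters TGACTCA occurred in none of the 10, beside 5.20% of all windows. The TATA box TATAAA occurred in 1, that of Cdk6, beside 13.6% of all windows. These are matches of letters and were not measured as bound sites.

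The D-type cyclins were expressed together. Ccnd1 (ENSMUSG00000070348.5, chromosome 7, 144929931 to 144939925, GRCm38, minus strand), which encodes cyclin D1, a cyclin raised by growth factor signalling, measured 36.4, 36.5 and 40.2 FPKM in flavonoids replicates 1, 2 and 3. In untreated replicates 1, 2 and 3 it measured 55.8, 65.6 and 62.3 FPKM. Every treated value was below every untreated one, with the nearest pair 40.2 and 55.8 FPKM. The means were 37.7 ± 2.17 FPKM with flavonoids and 61.2 ± 4.97 FPKM untreated (SD, n = 3 each). The fitted log2 change was -0.68 (SE 0.11, 95% interval -0.94 to -0.43, limma adjusted p = 0.00995). The call was lost without flavonoids replicate 1 (adjusted p = 0.0616), flavonoids replicate 2 (0.0552) or untreated replicate 2 (0.0813), where the log2 change was -0.66, -0.66 and -0.63. It was kept in the other 16 of 19 settings tried, within a range of adjusted p of 0.00156 to 0.0813 over all of them.

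Ccnd3 (chromosome 17, 47505051 to 47599691), which encodes cyclin D3, the D-type cyclin that persists in many differentiated cells, measured 50.7, 53.9 and 55.9 FPKM in flavonoids replicates 1, 2 and 3. It measured 66.3, 64.4 and 58.8 FPKM in untreated replicates 1, 2 and 3. The groups did not overlap, but untreated replicate 3 lay close to the treated range, and the log2 change of -0.24 did not pass (SE 0.11, 95% interval -0.48 to 0.012, limma adjusted p = 0.204). Ccnd2 (chromosome 6, 127125162 to 127152193), the cyclin D2 gene, measured 20.7, 18.3 and 16.6 FPKM with flavonoids and 14.8, 20.7 and 23.8 FPKM in untreated replicates 1, 2 and 3. Its groups overlapped throughout, since the lowest and the highest value were both untreated. The log2 change was -0.069 (95% interval -0.47 to 0.33, limma adjusted p = 0.838), and it was 0.072 without untreated replicate 3.

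The share of Ccnd1 among the D-type cyclins was lower in every treated library. FPKM is per length, so levels of different genes can be set side by side, and Ccnd1 made up 33.8%, 33.6% and 35.7% of the summed D-type cyclin FPKM in flavonoids replicates 1, 2 and 3. It made up 40.8%, 43.5% and 43.0% in untreated replicates 1, 2 and 3. These shares did not overlap between the groups. Ccnd3 was the largest share in all 3 treated libraries, at 47.0% to 49.6%, and ranged from 40.6% to 48.4% in untreated ones. Ccnd2 ranged from 14.7% to 19.2% with flavonoids and from 10.8% to 16.4% untreated. The ratio of Ccnd1 to Ccnd3 was 0.72, 0.68 and 0.72 with flavonoids and 0.84, 1.02 and 1.06 in untreated replicates 1, 2 and 3, so that the first gene exceeded the second in 2 untreated libraries and in no treated one. Their implied lengths differ, at 3874 and 2119 bases. Genes near those lengths had median log2 deviations of -0.057 and 0.069 in untreated replicate 1. In untreated replicate 3 these medians were 0.087 and -0.12. The part of gene length in these shares and ratios was not tested. Summed D-type cyclin FPKM averaged 109.7 ± 2.65 with flavonoids and 144 ± 6.93 untreated (SD, n = 3 each); as a sum over chosen genes it was not tested.

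**Figure D2:**
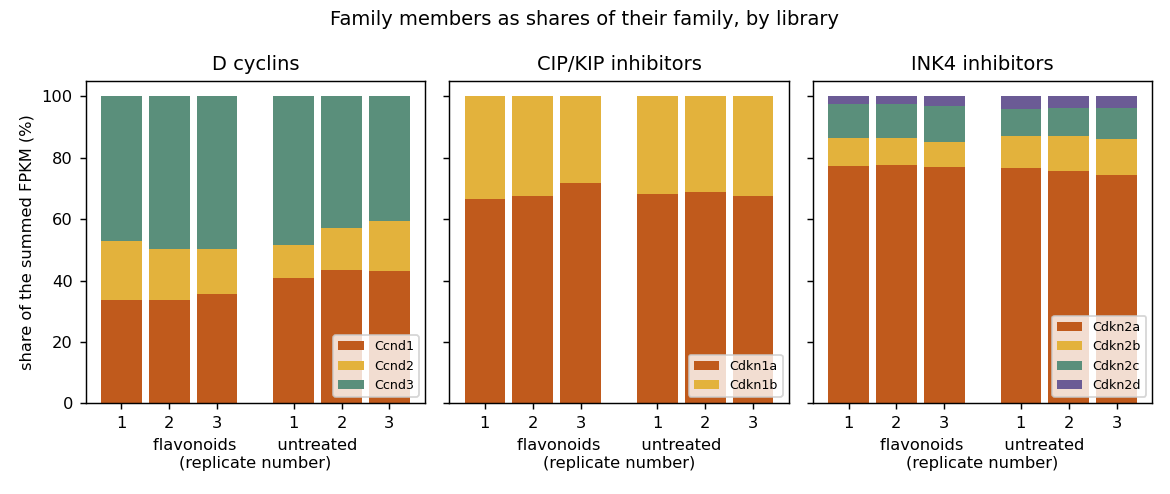
Share of each gene in the summed FPKM of its family, in percent, for each library, with flavonoids replicates left of untreated ones; Cdkn1c is at 0 and not drawn. Ccnd1 made up 33.6% to 35.7% of D-type cyclin FPKM in treated libraries and 40.8% to 43.5% in untreated ones, while Cdkn1a and Cdkn1b had overlapping shares.

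Ccne1 (chromosome 7, 38097984 to 38107534, minus strand) encodes cyclin E1, which activates Cdk2 at the end of G1. It measured 7.66, 8.81 and 8.68 FPKM in flavonoids replicates 1, 2 and 3 and 11.1, 10.6 and 9.0 FPKM in untreated replicates 1, 2 and 3. The groups did not overlap, with 8.81 and 9.0 FPKM as the nearest values. The log2 change of -0.26 did not pass (SE 0.13, 95% interval -0.55 to 0.037, limma adjusted p = 0.243). Its close relative Ccne2 did fall. Ccne2 measured 2.18, 2.50 and 1.04 FPKM with flavonoids and 4.42, 4.19 and 4.55 FPKM untreated, a log2 change of -0.93 (SE 0.21, limma adjusted p = 0.0258). Ccne1 made up 77.8% to 89.3% of summed cyclin E FPKM in treated libraries and 66.4% to 71.6% in untreated ones. The implied lengths of Ccne1 and Ccne2 differ, at 1956 and 3113 bases. The part of gene length in these shares was not tested. The call of Ccne2 was lost with the replicate block, without a filter on low values, without flavonoids replicate 1 and without untreated replicate 2 (adjusted p of 0.0673, 0.103, 0.0753 and 0.105).

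The kinase genes had the highest and the lowest level among detected members. Cdk4 (ENSMUSG00000006728.12, chromosome 10, 127063534 to 127067920, plus strand), the kinase partner of the D-type cyclins, measured 615, 649 and 677 FPKM in flavonoids replicates 1, 2 and 3. In untreated replicates 1, 2 and 3 it measured 553, 492 and 372 FPKM. Every treated value was above every untreated one, and untreated replicate 3 was far below its group. Means were 647 ± 31.0 FPKM with flavonoids and 472 ± 92.0 FPKM untreated (SD, n = 3 each), a 1.37-fold difference and a log2 change of 0.47. This did not pass (SE 0.17, 95% interval 0.084 to 0.86 before adjustment, limma adjusted p = 0.118).

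The verdict on Cdk4 turned on the scaling and on single libraries. It passed as higher when libraries were rescaled to TPM (log2 change 0.41, adjusted p = 0.0479), with quantile normalization (0.49, adjusted p = 0.0106), with each library's trend over gene length removed (0.48, adjusted p = 0.005), with that trend removed and untreated replicate 3 left out (0.38, adjusted p = 0.0163) and without untreated replicate 1 (0.59, adjusted p = 0.0379). Cdk4 is the shortest detected member, at 1347 bases as implied by the steps between its FPKM values. Its log2 deviation in untreated replicate 3 was -0.56, further down than the medians of -0.27 and -0.21 in the bins of gene length on either side of it in that library. Over all 19 settings its log2 change ranged from 0.31 to 0.59 and its adjusted p from 0.005 to 0.282.

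Cdk6 (chromosome 5, 3341485 to 3531008), the second D-type cyclin kinase, measured 4.70, 4.93 and 3.69 FPKM with flavonoids and 3.72, 5.05 and 7.04 FPKM in untreated replicates 1, 2 and 3. The groups overlapped, with untreated replicate 3 highest. The log2 change was -0.18 (95% interval -0.64 to 0.28, limma adjusted p = 0.617) and 0.019 without untreated replicate 3. Cdk6 is the longest detected member, at 11525 bases. Per length, Cdk4 exceeded Cdk6 131-fold, 132-fold and 183-fold in flavonoids replicates 1, 2 and 3, and 149-fold, 97.5-fold and 52.9-fold in untreated replicates 1, 2 and 3. Cdk4 made up 98.1% to 99.5% of the pair in every library. Cdk4 FPKM was 5.71, 5.98 and 6.01 times the summed D-type cyclin FPKM with flavonoids, and 4.04, 3.27 and 2.57 times in untreated replicates 1, 2 and 3. These ratios did not overlap between groups; they were not tested, and the part of gene length in them was not tested either.

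**Figure D3:**
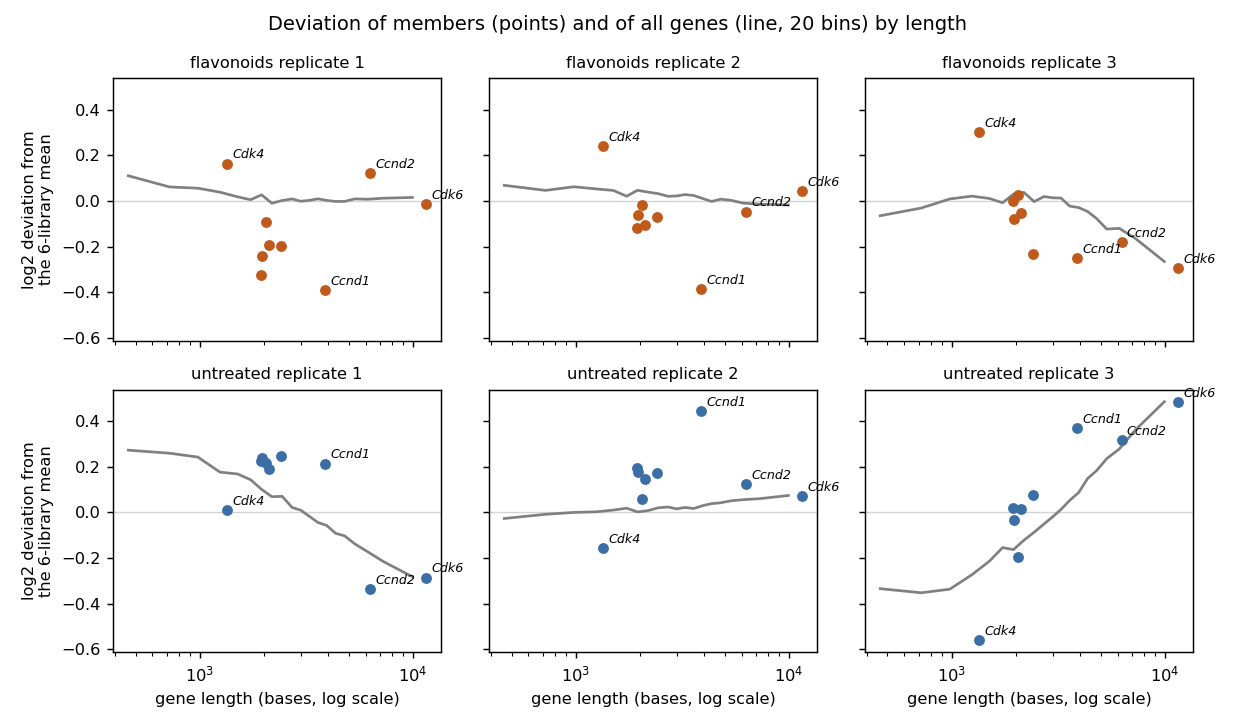
Log2 deviation of each member from its 6-library mean (points) and the median of all tested genes in 20 bins of gene length (line), against gene length on a log axis, by library, with flavonoids above untreated. In untreated replicate 3 the line climbs with length; Cdk6 lay on it at 0.48, and Cdk4, at -0.56, lay below it.

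None of the CIP/KIP inhibitor genes passed the test. Cdkn1b (ENSMUSG00000003031.14, chromosome 6, 134920401 to 134925513, plus strand) encodes p27, which holds Cdk2 inactive in resting cells. It measured 48.7, 53.3 and 47.5 FPKM in flavonoids replicates 1, 2 and 3 and 66.7, 63.2 and 59.2 FPKM in untreated replicates 1, 2 and 3. The groups did not overlap, with nearest values of 53.3 and 59.2 FPKM. Means were 49.8 ± 3.07 FPKM with flavonoids and 63.0 ± 3.79 FPKM untreated (SD, n = 3 each), and the log2 change of -0.33 did not pass (SE 0.11, 95% interval -0.58 to -0.084 before adjustment, limma adjusted p = 0.0913). It passed as lower on the TPM scale (adjusted p = 0.0391), with quantile normalization (0.0398), with the length trend removed (0.0262), without untreated replicate 3 (0.0463) and with both of the last changes (0.0356), within a range of 0.0262 to 0.296 over 19 settings.

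Cdkn1a (ENSMUSG00000023067.14, chromosome 17, 29090976 to 29100727, plus strand) encodes p21, a target of p53 that is also raised in differentiating cells. It measured 96.7, 112 and 121 FPKM with flavonoids and 142, 139 and 123 FPKM in untreated replicates 1, 2 and 3. The groups were separated only by the gap between 121 FPKM in flavonoids replicate 3 and 123 FPKM in untreated replicate 3. The log2 change was -0.29 (SE 0.13, 95% interval -0.59 to -0.0018 before adjustment, limma adjusted p = 0.182), and it passed only with quantile normalization among the settings tried (adjusted p = 0.0478). Cdkn1a was 1.99, 2.09 and 2.55 times Cdkn1b in FPKM with flavonoids and 2.13, 2.19 and 2.08 times in untreated replicates 1, 2 and 3, so the ratio overlapped between groups.

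Cdkn1c (ENSMUSG00000037664.13, chromosome 7, 143458339 to 143461050, minus strand), the imprinted gene of the inhibitor p57, was listed at 0 FPKM in all 6 libraries. With an annotated exon length of 2039 bases, the limit of 3 fragments that a count of 0 allows corresponds to 0.0555 to 0.0594 FPKM in treated libraries and 0.0582 to 0.0666 FPKM in untreated ones, for counting error only. Of the 20 nearest protein-coding genes, 10 had a mean of at least 1 FPKM, beside 47.5% of all protein-coding genes, so the stretch around it was not empty. A value of 0 in a table without counts can also be a failed estimate.

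Cdkn2c (chromosome 4, 109660876 to 109667189, minus strand) encodes p18, an INK4 inhibitor that binds Cdk4 and Cdk6. It measured 50.5, 53.1 and 54.8 FPKM with flavonoids and 62.7, 56.1 and 46.9 FPKM in untreated replicates 1, 2 and 3. The treated values lay inside the untreated range. The log2 change was -0.055 (SE 0.13, 95% interval -0.35 to 0.24, limma adjusted p = 0.822), which leaves room for changes of that size in either direction.

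The other INK4 genes were in the list of further G1 and S phase genes. Cdkn2b, which encodes p15, measured 40.5, 40.6 and 36.9 FPKM with flavonoids and 71.7, 67.0 and 52.9 FPKM in untreated replicates 1, 2 and 3, and fell (log2 change -0.68, limma adjusted p = 0.0184). Cdkn2d, which encodes p19 of the INK4 family, measured 10.4, 12.1 and 14.2 FPKM with flavonoids and 27.6, 22.1 and 17.6 FPKM untreated, and fell (log2 change -0.81, limma adjusted p = 0.0254). Cdkn2a, whose locus encodes both p16 and ARF under 1 symbol, measured 345, 370 and 356 FPKM with flavonoids and 530, 454 and 342 FPKM untreated (limma adjusted p = 0.329), and made up 77.1% to 77.8% of summed INK4 FPKM with flavonoids and 74.5% to 76.6% untreated. Cdkn2c, the member above, made up 11.2% to 11.9% with flavonoids and 9.05% to 10.2% untreated, without overlap, beside lower shares of Cdkn2b and Cdkn2d. The implied lengths of Cdkn2c, Cdkn2b and Cdkn2d differ, at 2038, 1393 and 1271 bases. These shares were not tested, and neither was the part of gene length in them. The calls of Cdkn2b and Cdkn2d were both lost when flavonoids replicate 1, 2 or 3 or untreated replicate 2 was left out (adjusted p of 0.0524 to 0.115). Both were also lost with no filter on low values (0.0539 and 0.0865), and that of Cdkn2d with the replicate block (0.0840).

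**Figure D4:**
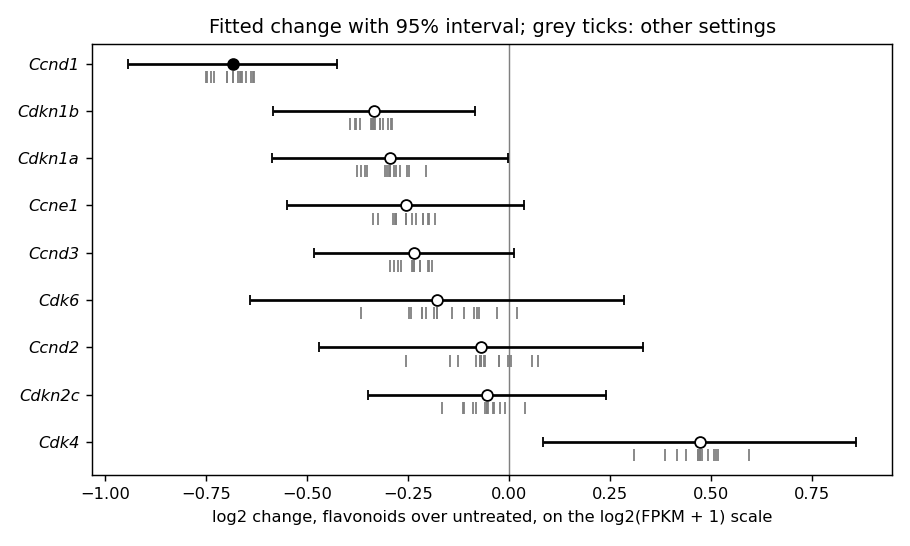
Fitted log2 change of each tested member, flavonoids over untreated, on the log2(FPKM + 1) scale, with its 95% interval before adjustment; filled points passed at an adjusted p under 0.05 and grey ticks are the values in other settings. Ccnd1 was the filled point at -0.68, and the ticks of Ccnd2, Cdk6 and Cdkn2c reached both sides of 0.

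Levels spanned a wide range. Mean FPKM over the 6 libraries ran from 559.8 for Cdk4 and 122 for Cdkn1a through 58.3 for Ccnd3, 56.4 for Cdkn1b, 54.0 for Cdkn2c and 49.5 for Ccnd1 to 19.1 for Ccnd2, 9.30 for Ccne1 and 4.85 for Cdk6. Cdk4 exceeded 99.0% of tested genes and Cdk6 30.5%. Ccnd3, Cdkn1b and Cdkn2c lay within the spread of each other in both groups, and Ccnd1 joined them in untreated libraries but was below all of them in each treated library. Cdk4, Cdkn1a, Ccnd2, Ccne1 and Cdk6 did not overlap with their neighbours in this order in any library. Within 1 gene, the highest library exceeded the lowest 1.31-fold for Ccnd3 and 1.91-fold for Cdk6.

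Some members had like profiles over the 6 libraries. The measure of likeness was the root mean square difference of log2(FPKM + 1) values, each centred on the gene's own mean. Ccnd3 and Ccne1 were the closest pair, at 0.043, followed by Ccne1 and Cdkn1a at 0.057 and by Ccnd3 and Cdkn1a at 0.063. Ccnd2 and Cdk6, the longest members, differed by 0.11. Ccnd3, Ccne1 and Cdkn1a are near each other in implied length, at 2119, 1956 and 1943 bases. The part of gene length in these likenesses was not tested. Ccnd1 and Cdk4 were the least alike of all pairs, at 0.62. Across 7273 other named genes averaging 5 FPKM or more, the profiles nearest to Ccnd1 were Plekha2, a phosphoinositide-binding adaptor gene, at 0.035, Car5b, a mitochondrial carbonic anhydrase gene, at 0.039, and Tgfb3, a TGF-beta ligand gene, at 0.041. Their log2 changes were -0.70, -0.66 and -0.68.

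Among 36 further genes of the G1 to S step, listed by function, 35 were in the table and 33 were tested. Of these, 5 fell and 0 rose with flavonoids (limma, adjusted p under 0.05), beside 5.13% of all tested genes called lower. At an unadjusted p under 0.05 there were 11 lower and 2 higher, beside 1640 lower and 1465 higher among all 11464 tested genes. Voom on fragments called 5 lower and 0 higher. The median log2 change was -0.24, beside -0.022 for all tested genes. The 5 were Ccne2, Cdkn2b and Cdkn2d, given above, with Ccna2 and Fbxo5. Ccna2, the cyclin of S phase, measured 10.1, 9.73 and 8.87 FPKM with flavonoids and 15.6, 16.1 and 12.8 FPKM in untreated replicates 1, 2 and 3 (log2 change -0.58, limma adjusted p = 0.0264). Fbxo5, which encodes an inhibitor of the anaphase-promoting complex, measured 8.36, 8.12 and 4.87 FPKM with flavonoids and 13.2, 13.2 and 12.6 FPKM untreated (log2 change -0.82, limma adjusted p = 0.0281). The calls of Ccna2 and Fbxo5 were lost with the replicate block (adjusted p of 0.0558 and 0.0543) and with no filter (0.0569 and 0.0931). The list thus held both promoters and inhibitors of the cycle among its lower genes. The count was 0 without flavonoids replicate 1 or untreated replicate 2, 1 without flavonoids replicate 2, 2 without flavonoids replicate 3, and 6 and 7 without untreated replicates 1 and 3.

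Cdk2, Rb1, E2f1 and E2f4, named here to describe the complexes and their targets, did not pass the test, whereas Ccna2, which also binds Cdk2, did. Cdk2, the cyclin E kinase, measured 20.6, 22.2 and 21.5 FPKM with flavonoids and 25.5, 27.4 and 27.3 FPKM untreated, without overlap (log2 change -0.31, limma adjusted p = 0.102). Rb1, the retinoblastoma gene, measured 3.41, 3.79 and 1.87 FPKM with flavonoids and 3.00, 3.76 and 4.48 FPKM untreated (limma adjusted p = 0.479). E2f1 measured 21.3, 19.9 and 21.7 FPKM with flavonoids and 28.2, 25.1 and 24.7 FPKM untreated (limma adjusted p = 0.124). E2f4, an E2F found in resting cells, measured 59.5, 60.9 and 61.4 FPKM with flavonoids and 52.1, 50.1 and 48.2 FPKM untreated (limma adjusted p = 0.13).

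Of 14 proliferation genes, all tested, 3 fell and 0 rose, beside 5.13% of all tested genes called lower. At an unadjusted p under 0.05 there were 7 lower and 1 higher, beside 1640 lower and 1465 higher among all 11464 tested genes. Voom called 3 lower and 0 higher. The median log2 change was -0.31, beside -0.022 for all tested genes. Top2a, a DNA topoisomerase of dividing cells, measured 14.8, 16.7 and 10.3 FPKM with flavonoids and 24.9, 29.4 and 35.1 FPKM in untreated replicates 1, 2 and 3 (log2 change -1.05, limma adjusted p = 0.0129). Aurkb and Bub1, kinases of mitosis, had log2 changes of -0.68 and -0.94 (limma adjusted p of 0.0122 and 0.0368). With the replicate block the calls of Top2a, Aurkb and Bub1 were lost (adjusted p of 0.0527, 0.0507 and 0.0792), with no filter those of Top2a and Bub1 (0.0590 and 0.130), and on the TPM scale that of Bub1 (0.0508). The call of Bub1 was also lost without untreated replicate 3 (limma adjusted p = 0.0542), and that of Aurkb without flavonoids replicate 2 (0.0578). Mki67, a marker of cycling cells, measured 5.28, 5.07 and 2.43 FPKM with flavonoids and 6.35, 8.23 and 18.1 FPKM in untreated replicates 1, 2 and 3 (limma adjusted p = 0.0889). Mcm2, a replication licensing gene, was 141, 154 and 175 FPKM with flavonoids and 116, 134 and 125 FPKM untreated (limma adjusted p = 0.143). The count of lower genes was 0 without flavonoids replicate 1 or untreated replicate 2, 2 without flavonoids replicate 2, 3 without flavonoids replicate 3, 4 without untreated replicate 1 and 5 without untreated replicate 3. In bulk RNA, fewer cycling cells and less transcript per cell cannot be told apart.

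**Figure D5:**
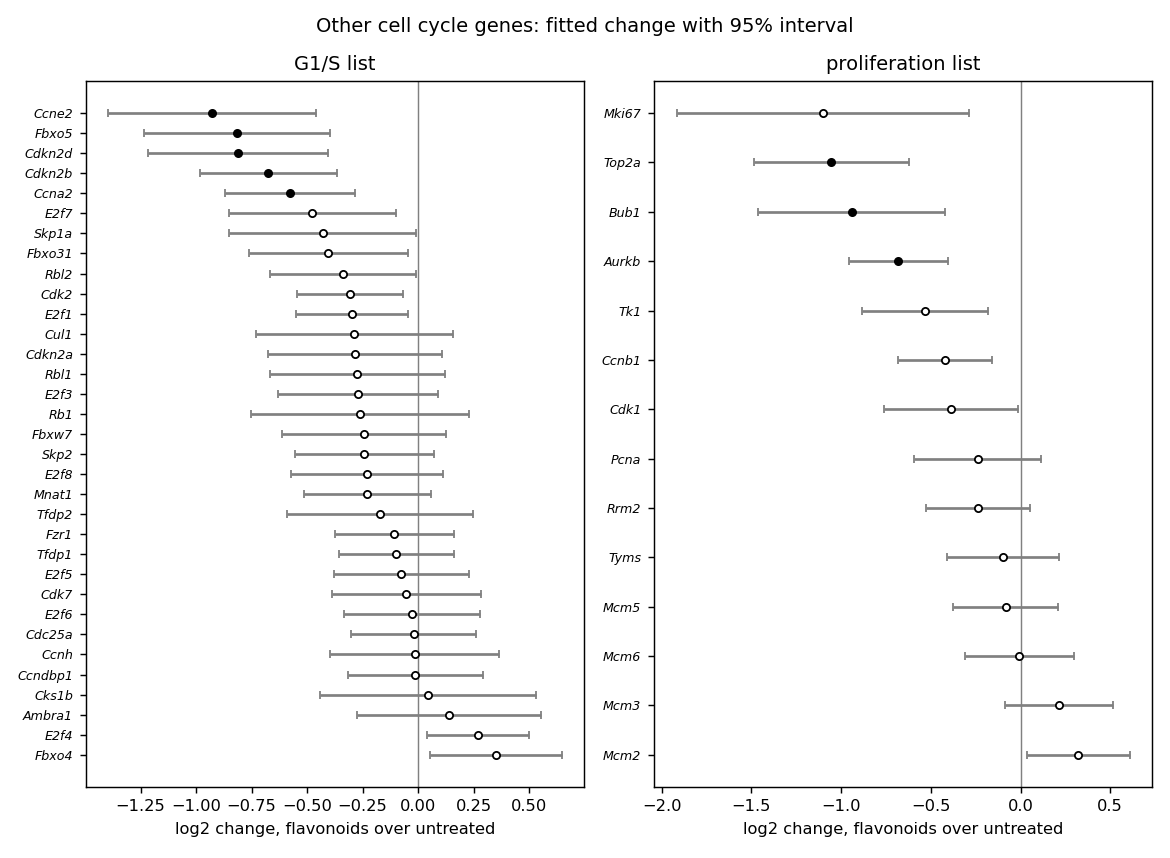
Fitted log2 change, flavonoids over untreated, with 95% interval before adjustment, for the tested genes of the G1/S list (left) and the proliferation list (right); filled points passed at an adjusted p under 0.05. Filled points are 5 of 33 genes on the left and 3 of 14 on the right, all below 0.

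Markers of other cell types were given for the same libraries. Of 8 preadipocyte or fibroblast markers, 7 were tested and 1, Thy1, fell (log2 change -0.64, limma adjusted p = 0.0118), beside 5.13% of all tested genes called lower. At an unadjusted p under 0.05 there were 5 lower and 0 higher, beside 1640 lower and 1465 higher among all 11464 tested genes. Voom called 1 lower and 0 higher. Of the 7 log2 changes 6 were negative, beside 6032 of all 11464, and their median was -0.42, beside -0.022 for all tested genes. The 1 positive log2 change was that of Pdgfrb, at 0.16 (limma adjusted p = 0.576). The summed level of the 8 was 2130 to 2407 FPKM with flavonoids and 2659 to 3150 FPKM untreated. Most of it came from Col1a1 and Col3a1, which averaged 663 and 1066 FPKM with flavonoids and 894 and 1284 FPKM untreated. Neither of these 2 genes passed (limma adjusted p of 0.166 and 0.288). The 14 mature adipocyte markers summed to 378 to 544 FPKM with flavonoids and 412 to 434 FPKM untreated. Of these markers 6 were tested and none was called, beside 9.99% of all tested genes called in either direction. At an unadjusted p under 0.05 there were 1 higher and 0 lower, beside the all-gene counts above, and voom called 0. Of 5 macrophage markers, Cd14 was the 1 tested and rose (log2 change 0.86, limma adjusted p = 0.0169), while Ptprc, which marks white blood cells, was at 0 in every library; the sums were 22.8 to 25.4 FPKM with flavonoids and 10.3 to 16.5 FPKM untreated. The 4 endothelial markers summed to at most 0.281 FPKM with flavonoids and 0.256 FPKM untreated, with Cdh5 and Kdr at 0 throughout. Of 4 skeletal muscle markers, Myod1 was at 0 throughout and the sums were 4.90 to 5.74 FPKM with flavonoids and 6.04 to 8.16 FPKM untreated, nearly all from Des, which did not pass (limma adjusted p = 0.173). The calls of Thy1 and Cd14 were lost without flavonoids replicate 1 or 2 or untreated replicate 2, and that of Cd14 also without flavonoids replicate 3 (adjusted p of 0.0550 to 0.0884) and with no filter (0.0644). The summed fibroblast markers lay lower in every treated library, as Ccnd1 did, and their part in its change was not tested.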

How the data were processed

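RNA from 3 flavonoid-treated and 3 untreated samples of 3T3-L1 cells was profiled. TRIzol extraction and TruSeq RNA libraries are named per the labels' protocols. The authors deposited FPKM values for 46095 gene symbols, 1 column per sample. FastQC, HISAT2 and the build mm10 are named per the submitters' processing notes. Versions, counting tool, annotation and strand use are not given in the sources, so reads shared by paralogs, overlapping or antisense genes cannot be assigned with certainty. The test was limma 3.58.1 (R 4.3.3), fitted two-sided to log2(FPKM + 1) with a variance trend over intensity, for 11464 genes averaging 1 FPKM or more, with Benjamini-Hochberg adjustment over all of them. A fold change on this scale understates the change of low genes. An exact permutation test of 3 against 3 cannot go below 0.1 and was not used.

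FPKM values are whole multiples of 1 fragment, and fragments were worked back for all 22235 genes above 0, within a tolerance of 0.005. A single denominator per library made the implied gene lengths whole within 0.02 bases for 99.3% of 10854 deep genes. Between libraries of 1 group, chi-square per degree of freedom was 6.12 to 112, so none was a copy. On simulated data for 1981 genes, 97.9% of the fragment values were worked back exactly, and 99.9% were exact up to a divisor shared by a gene's values. The limma fit was also tested on simulated data.

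All 10 members are named whatever their result, with every called gene of the G1/S list, up to 4 examples of the proliferation list and the 3 profiles nearest to each called member; Cdk2, Rb1, E2f1, E2f4 and Cdkn2a are given to describe complexes and families, and Mcm2 was chosen after its values were seen. Members, lists and tests were chosen with earlier results of these data known. Settings tried were a replicate block, pseudocounts of 0.1 and 5, no filter or a minimum mean of 5 FPKM, TPM, median-ratio and quantile scaling, no trend or a robust fit, voom on fragments, removal of the trend over gene length, and leaving out each library. Gene positions are from GENCODE M21 on GRCm38, the assembly mm10 denotes. Other steps ran in Python 3.11.15 (numpy 2.4.6; pandas 2.3.3; figures in matplotlib 3.10.9).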

Additional observations from a re-analysis of the deposited data

How the results depend on the processing

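Among all tested genes 557 were called higher and 588 lower. The higher and lower counts were 220 and 237 with the replicate block, 317 and 324 with no filter, 1323 and 1203 with the gene length trend removed, and 1021 and 946 with that trend removed and without untreated replicate 3, a setting chosen after seeing the data, as were all settings for the G1/S and proliferation lists. Leaving out 1 library gave 64 to 875 higher and 76 to 827 lower genes, lowest without untreated replicate 2. Called members were 1 higher and 2 lower on the TPM scale, beside 441 higher and 599 lower among all tested genes. With quantile normalization they were 1 higher and 3 lower, beside 710 higher and 666 lower among all tested genes. They were 1 higher and 2 lower with the length trend removed, also without untreated replicate 3. With 1 library left out they were 0 to 1 higher and 0 to 2 lower. With the replicate block, members called were 0 higher and 1 lower, the G1/S list had 1 lower gene and the proliferation list 0; with no filter these lists had 0 and 1. The proliferation list had 5 with quantile normalization, 6 with the length trend removed and 7 with that and without untreated replicate 3. Leaving out 1 library gave 0 to 7 lower genes in the G1/S list and 0 to 5 in the proliferation list. With no filter more genes enter both the fit and the adjustment, and unadjusted p-values moved as well. For all these shifts the cause was not tested. Same-numbered treated and untreated libraries had correlations of their deviations from group means of -0.203 to -0.117, and 0 of 6 libraries correlated best with their own number. Each library's trend over gene length also enters these correlations, so they cannot tell if the numbers pair the samples.

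Of 170 member values in other settings, 151 kept direction and side of the threshold, 11 passed where they had not, 3 no longer passed and 5 changed sign: Ccnd2 without flavonoids replicate 3 or untreated replicate 3, and at 0.056 with the length trend also removed, Cdk6 without untreated replicate 3 and Cdkn2c without untreated replicate 1. With 1 library left out the log2 change ranged from -0.25 to 0.072 for Ccnd2, -0.37 to 0.019 for Cdk6 and -0.17 to 0.040 for Cdkn2c. Cdk6 was not tested at a minimum mean of 5 FPKM. Among members, Cdkn1c had 0 fragments in each library, so only the upper limit given above, for counting error, can be stated.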
